A study of Homo sapiens with 12 samples.

Results

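The oxygen-dependent histone demethylases were followed as 10 genes, *KDM2A*, *KDM2B*, *KDM3A*, *KDM3B*, *KDM4A*, *KDM4B*, *KDM4C*, *KDM5A*, *KDM5B* and *KDM6B*. They were chosen by symbol, each symbol matched 1 Ensembl gene, and they are 10 of the 20263 genes in the deposited table. Their mRNA was measured by bulk sequencing in U-87 MG cells (U87), a long-established line from a human glioblastoma. All 12 libraries, 3 per group, came from cells under hypoxia, at 1% O2 for 72 h in the sequencing record. For mRNA detection in general the paper's methods give a shorter exposure. Their longer hypoxia, given for other assays, included the chemotherapy drug temozolomide, whereas the labels of these libraries name no drug. The groups were cells with the empty vector (vector), HIF1α-ko, in which *HIF1A* was targeted, HIF2α-ko, in which *EPAS1* was targeted, and HIF1α/2α-ko, in which both were targeted. No library from cells in normal oxygen was analysed here, so the values show what the knockouts changed under hypoxia and not what hypoxia itself changed. How the knockouts were made, whether a line was a clone or a pool, and whether the libraries of a group came from separate cultures are not given in the sources used here, so every p-value measures the spread between these libraries, which may be technical.

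Values are TPM, a measure of transcript abundance corrected for gene length and brought to the same total in each library. TPM keeps no sequencing depth, so the depth of each library is unknown and neither a counting interval nor a detection limit can be given. The targeted transcripts were reduced but present: *HIF1A* was 124 ± 23.5 TPM (mean ± SD, n = 3) in vector and 48.5 ± 9.35 TPM in HIF1α-ko. Its level was 86.8 ± 18.1 TPM in HIF2α-ko and 75.5 ± 11.9 TPM with both targeted. *EPAS1* was 322 ± 31.5, 265 ± 20.2, 107 ± 17.0 and 117 ± 14.4 TPM in the same order. By western blot the paper reports more HIF2α protein after HIF1α knockout and more HIF1α protein after HIF2α knockout. Protein was not measured in these libraries, so a single knockout may not leave the other factor unchanged. Of the glioma line markers, *VIM*, *CD44*, *SPARC*, *CHI3L1* and *FN1* were above 100 TPM in every library, whereas *NES* was at 2.64 to 6.17 TPM. Vector replicate 1 correlated least with its group, at a Pearson's r across genes of 0.983 and 0.984 against 0.994 between the other vector libraries. Replicate 1 also correlated least within each knockout group. Its r was 0.9907 and 0.9914 against 0.9955 in HIF1α-ko, 0.9918 and 0.9918 against 0.9959 in HIF2α-ko, and 0.9874 and 0.9880 against 0.9962 in HIF1α/2α-ko. Results of members that rest on vector replicate 1 are given with and without it. Values of single genes outside the members are given with all 12 libraries only. In bulk libraries, fewer cells that express a gene and less RNA per cell cannot be told apart.

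These enzymes carry a Jumonji C (JmjC) domain, which uses molecular oxygen, ferrous iron and 2-oxoglutarate to oxidise a methyl group on a histone lysine, which is then released as formaldehyde. The prolyl hydroxylases that mark HIF1α and HIF2α for destruction belong to the same enzyme class, and some JmjC genes, with *KDM3A*, *KDM4B* and *KDM4C* among the best known, are induced by HIF in hypoxia. By substrate, KDM3A and KDM3B act on H3K9, KDM4A, KDM4B and KDM4C on H3K9 and H3K36, KDM2A and KDM2B mainly on H3K36, KDM5A and KDM5B on H3K4, and KDM6B on H3K27. Methylated H3K9 and H3K27 are marks of silent chromatin, and methylated H3K4 marks active promoters.

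The sequences just upstream of *KDM3A*, *KDM4C* and *KDM4B* are shown because these 3 genes are the members best known as HIF-induced, and HIF binds DNA at a short core. The core was searched as ACGTG or GCGTG on either strand, in RefSeq windows (GRCh38.p14) from 250 bases before to 50 bases after each start site. The 250 bases before the start are printed 5′ to 3′ on the plus strand, which is the gene's strand in each case, and capitals mark the core. They are chr2:86441121-86441370 for *KDM3A*, chr9:6757723-6757972 for *KDM4C* and chr19:4968863-4969112 for *KDM4B*.
KDM3A: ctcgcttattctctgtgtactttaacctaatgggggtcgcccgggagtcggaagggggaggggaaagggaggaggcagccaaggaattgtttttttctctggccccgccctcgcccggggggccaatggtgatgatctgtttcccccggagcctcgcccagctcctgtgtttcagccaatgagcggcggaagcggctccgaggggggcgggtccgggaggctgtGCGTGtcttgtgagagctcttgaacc
KDM4C: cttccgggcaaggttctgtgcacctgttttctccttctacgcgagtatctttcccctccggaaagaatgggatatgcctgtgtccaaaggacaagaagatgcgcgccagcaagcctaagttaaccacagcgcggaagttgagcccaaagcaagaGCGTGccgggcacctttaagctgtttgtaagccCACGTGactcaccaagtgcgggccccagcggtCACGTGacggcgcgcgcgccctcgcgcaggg
KDM4B: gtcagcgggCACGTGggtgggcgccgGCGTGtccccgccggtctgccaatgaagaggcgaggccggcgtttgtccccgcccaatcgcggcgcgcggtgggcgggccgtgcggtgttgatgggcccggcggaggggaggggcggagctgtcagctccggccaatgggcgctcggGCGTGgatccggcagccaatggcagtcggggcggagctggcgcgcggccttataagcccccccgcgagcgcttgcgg
The *KDM3A* window held 1 match, whose first base lay 26 bases before the start, and a second *KDM3A* window held the same site 116 bases before its own start. *KDM4C* held 5 matches, because each of its CACGTG stretches, 63 and 31 bases before the start, reads as ACGTG on both strands. *KDM4B* held 4 matches, of which 2 came from such a stretch 241 bases before the start. Among the 21552 windows of genes in the deposited table, 5.44% held 4 or more matches and 2.39% held 5 or more. The 10 genes had 16 windows, of which 13 (81.2%) held at least 1 match, beside 54.9% of the windows of all genes in the table. *KDM2A*, whose estimate in HIF1α-ko is given further on, had windows with 3 and 0 matches, and *KDM3B* had none in its single window. *KDM2B* had windows with 3, 1, 1 and 1 matches, *KDM6B* had windows with 1 and 0, and *KDM4A*, *KDM5A* and *KDM5B* each had 1 match. A match describes letters in a window, and binding was not measured here.

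The levels of the 10 genes differed under hypoxia with intact HIF genes. In vector, *KDM2A* was highest at 35.3 ± 11.8 TPM (mean ± SD, n = 3), followed by *KDM3A* at 31.9 ± 7.70 and *KDM2B* at 30.7 ± 0.494. *KDM6B* at 19.1 ± 7.04, *KDM4B* at 18.6 ± 3.10 and *KDM5B* at 18.2 ± 8.73 TPM came next. *KDM4A* was at 9.71 ± 3.28, *KDM3B* at 8.04 ± 0.546, *KDM5A* at 6.93 ± 0.538 and *KDM4C*, the lowest, at 5.22 ± 0.523 TPM. Neighbours in this order had overlapping vector libraries except at 3 steps, between *KDM2B* and *KDM6B*, between *KDM3B* and *KDM5A*, and between *KDM5A* and *KDM4C*. Summed over the 10 genes the level was 184 ± 30.2 TPM in vector, 146 ± 15.0 TPM on loss of HIF1α, 177 ± 12 in HIF2α-ko and 177 ± 29 with both knockouts. All 10 passed the filter of at least 1 TPM in at least 3 libraries. The plot of TPM by library shows each value.

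The question of the first comparison was what targeting *HIF1A* alone did to these transcripts. *KDM3A* and *KDM4C* were lower in HIF1α-ko than in vector, to 0.595 and 0.543 of the vector TPM, and no member passed as higher. Thus 2 of the 10 genes passed the test, beside 26.1% of the 11731 genes tested in either direction and 8.77% that were lower. The test was limma on log2(TPM + 1), with p-values adjusted over all genes tested and a threshold of 0.05, and fold changes on this scale understate the change of low genes. At an unadjusted p under 0.05, 4 members were below vector. Libraries of the 2 groups did not overlap for 3 members, beside 39.6% of all genes. The median log2 difference of all genes tested was 0.18 in this comparison and that of the 10 members was -0.19.

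*KDM3A*, an H3K9 demethylase of the KDM3 family, measured 23.2, 34.5 and 37.9 TPM in vector replicates 1 to 3, and 15.8, 19.5 and 21.6 TPM in HIF1α-ko. It measured 20.4, 31.8 and 32.0 TPM in HIF2α-ko and 24.1, 36.7 and 29.5 TPM in HIF1α/2α-ko. Every HIF1α-ko library was below every vector library, while both other knockout groups overlapped vector. *KDM3A* fell by 0.70 on the log2 scale in HIF1α-ko (95% interval -1.20 to -0.20, adjusted p = 0.0426). With both knockouts its log2 difference from vector was -0.07 (95% interval -0.57 to 0.43, adjusted p = 0.823). In HIF2α-ko the difference was -0.18 (adjusted p = 0.681).

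*KDM3B*, the paralog of *KDM3A*, showed a different pattern. It measured 7.60, 7.88 and 8.65 TPM in vector and 7.99, 11.0 and 9.58 in HIF1α-ko. It measured 5.85, 7.15 and 5.96 TPM in HIF2α-ko and 8.40, 10.9 and 11.5 TPM in the dual knockout. All HIF2α-ko libraries lay below all others, but the log2 difference from vector, -0.31, did not pass the test (adjusted p = 0.260). With HIF1α lost the difference from vector was 0.21 (adjusted p = 0.371), and with both lost it was 0.31 (adjusted p = 0.149).

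*KDM4C*, which acts on H3K9 and H3K36 and had the lowest level of the 10 genes, measured 4.79, 5.06 and 5.80 TPM in vector and 1.69, 3.54 and 3.27 TPM in HIF1α-ko. It measured 5.22, 8.73 and 7.54 TPM in HIF2α-ko and 3.26, 5.64 and 5.10 TPM in HIF1α/2α-ko. The HIF1α-ko libraries lay below all vector and HIF2α-ko libraries, and HIF1α-ko replicate 1 was the lowest of the 12. *KDM4C* fell by 0.73 on the log2 scale in HIF1α-ko (95% interval -1.26 to -0.20, adjusted p = 0.0450). Neither its difference from vector in HIF2α-ko, 0.37 (adjusted p = 0.361), nor that of the dual knockout, -0.16 (adjusted p = 0.629), passed.

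*KDM4B*, of the same family, measured 15.2, 21.3 and 19.5 TPM in vector and 14.7, 14.2 and 12.9 TPM in HIF1α-ko. It measured 23.1, 21.8 and 20.5 TPM in HIF2α-ko and 23.4, 20.6 and 20.7 TPM in HIF1α/2α-ko. The HIF1α-ko libraries lay below all 9 others, with vector replicate 1 the nearest to them. Against vector the log2 difference in HIF1α-ko was -0.39 (95% interval -0.70 to -0.07, adjusted p = 0.0696), which did not pass the test.

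*KDM4A* went the other way among its paralogs. It measured 13.5, 7.70 and 7.93 TPM in vector and 13.0, 12.3 and 13.2 in HIF1α-ko. It measured 9.99, 8.50 and 7.80 TPM in HIF2α-ko and 10.1, 17.0 and 17.1 TPM in the dual knockout. Vector replicate 1 lay above every HIF1α-ko library while the other two vector libraries lay below them all. The log2 difference from vector was 0.41 in HIF1α-ko (adjusted p = 0.202) and 0.56 with both knockouts (95% interval 0.06 to 1.06, adjusted p = 0.0646), and neither passed.

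*KDM2A*, an H3K36 demethylase that binds unmethylated CpG islands, measured 22.1, 39.4 and 44.5 TPM in vector and 24.5, 18.8 and 12.8 TPM in HIF1α-ko. It measured 27.4, 19.7 and 36.6 TPM in HIF2α-ko and 23.2, 22.8 and 33.9 TPM in HIF1α/2α-ko. Its point estimate in HIF1α-ko was farther from 0 than that of any other member, at -0.87 on the log2 scale (95% interval -1.53 to -0.21), but the groups overlapped through vector replicate 1 and the adjusted p was 0.0524. *KDM2B*, which recruits a Polycomb complex to CpG islands, was at 30.2 to 31.1 TPM in vector and 21.2 to 36.6 TPM over all libraries, with log2 differences from vector of -0.08 on loss of HIF1α, 0.12 on loss of HIF2α and -0.02 on loss of both (adjusted p = 0.773, 0.747 and 0.925).

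The H3K4 and H3K27 demethylases among the members, *KDM5A*, *KDM5B* and *KDM6B*, did not pass the test in any of the 7 comparisons. *KDM5A* ranged from 5.32 to 8.14 TPM over the 12 libraries, with 95% intervals of the log2 difference from vector of -0.41 to 0.30 in HIF1α-ko, -0.55 to 0.15 in HIF2α-ko and -0.50 to 0.21 with both knockouts. *KDM5B* ranged from 9.33 to 28.0 TPM, and both vector replicate 2 at 11.4 TPM and vector replicate 3 at 28.0 TPM lay outside the HIF1α-ko range of 14.2 to 24.8. *KDM6B*, the inducible H3K27 demethylase also called JMJD3, ranged from 11.3 to 25.2 TPM, and its vector libraries alone spanned 11.4 to 25.2 TPM. For *KDM5B* the interval in HIF1α-ko ran from -0.56 to 0.75 and for *KDM6B* from -0.86 to 0.25, so changes of the size seen for *KDM3A* fall inside the interval of *KDM6B*.

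The *KDM3A* and *KDM4C* calls in HIF1α-ko depended on single libraries. Both calls were lost when any HIF1α-ko library, replicate 2 or 3 of vector or of HIF2α-ko, or replicate 3 of the dual knockout was left out, with adjusted p up to 0.151 for *KDM3A* and 0.143 for *KDM4C*, although the difference was negative in each of these fits (-0.80 to -0.57 and -0.87 to -0.49). Without vector replicate 1, 6 of 10 members passed, beside 35.8% of all genes. In that fit *KDM2A* (-1.17, adjusted p = 0.0104), *KDM3A* (-0.91, adjusted p = 0.0101), *KDM4B* (-0.52, adjusted p = 0.00947), *KDM4C* (-0.78, adjusted p = 0.0498) and *KDM6B* (-0.62, adjusted p = 0.0335) were lower and *KDM4A* was higher (0.65, adjusted p = 0.0328). *KDM2A* also passed without HIF1α-ko replicate 1 (-1.08, adjusted p = 0.0339). Under median ratio scaling, which shifts the median of all genes, 4 members were lower, beside 23.9% of all genes called, with *KDM2A* at -1.06 (adjusted p = 0.0308) and *KDM4B* at -0.57 (adjusted p = 0.0398) besides *KDM3A* and *KDM4C*.

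**Figure D1:**
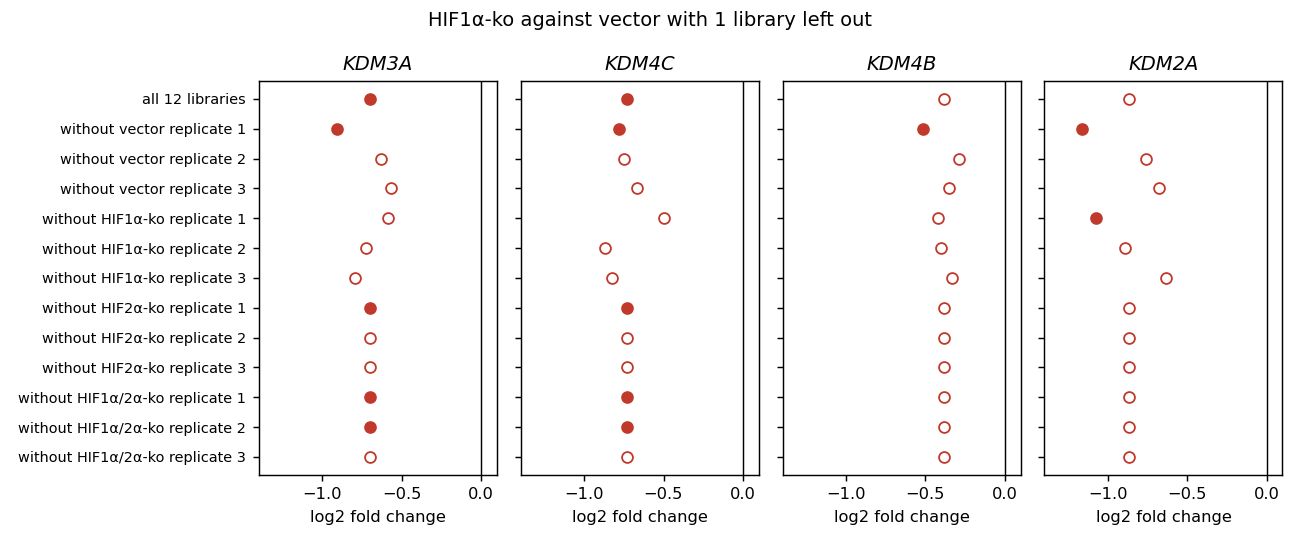
Log2 fold change of TPM + 1 between HIF1α-ko and vector (horizontal axis) for 4 demethylases with all 12 libraries and with each library left out (rows); filled points have an adjusted p under 0.05. The estimates stayed below 0 in every fit, and *KDM2A* and *KDM4B* passed the test without vector replicate 1.

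Markers of other cell types were low in these libraries apart from *CD68*. *PTPRC*, *GFAP*, *EPCAM*, *MBP* and *RBFOX3* were each below 1 TPM in every library, and *PTPRC* was listed at 0 in all 6 libraries of HIF2α-ko and HIF1α/2α-ko. The summed level of 7 markers without *CD68* was 1.58 to 6.42 TPM in vector, 2.03 to 3.19 TPM on loss of HIF1α, 3.0 to 5.06 in HIF2α-ko and 0.973 to 1.82 with both knockouts. With *CD68*, which encodes a lysosomal protein abundant in macrophages, the sum of all 8 was 1286 to 1639, 818 to 1064, 1013 to 1225 and 588 to 819 TPM. *CD68* fell by 0.64 on the log2 scale in HIF1α-ko (adjusted p = 0.00995), and its part in the demethylase results was not tested.

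In HIF2α-ko against vector, which asked what targeting *EPAS1* alone did, 0 of 10 members had an unadjusted p under 0.05. After adjustment 0 of 10 passed the limma test, beside 11.0% of all genes called. Without vector replicate 1 the count was also 0, beside 21.3% of all genes. The estimates ran from -0.31 for *KDM2A* and *KDM3B* to 0.37 for *KDM4C*. The HIF2α-ko libraries of *KDM3B* and *KDM5A* did not overlap those of vector, which was also true of 30.5% of all genes tested. The widest interval was that of *KDM2A*, -0.97 to 0.34, so this design could not resolve changes within that range for it.

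In HIF1α/2α-ko 0 of 10 members passed the limma test against vector, although 46.7% of all genes did. Only *KDM4A* had an unadjusted p under 0.05, and no member had libraries that did not overlap vector, beside 50.5% of all genes. Without vector replicate 1, 1 member passed, beside 48.5% of all genes, which was *KDM4A* at 0.80 (adjusted p = 0.00904). Without HIF1α/2α-ko replicate 1, *KDM4A* (0.80, adjusted p = 0.00929) and *KDM3B* (0.43, adjusted p = 0.0449) were higher, beside 50.6% of all genes called. Under median ratio scaling *KDM5A* was lower (-0.34, adjusted p = 0.0391), beside 46.5% of all genes called. The median log2 difference was 0.21 for all genes and -0.05 for the 10 members. These comparisons all share the 3 vector libraries. The plot of changes against vector sets the 3 knockouts side by side.

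**Figure D2:**
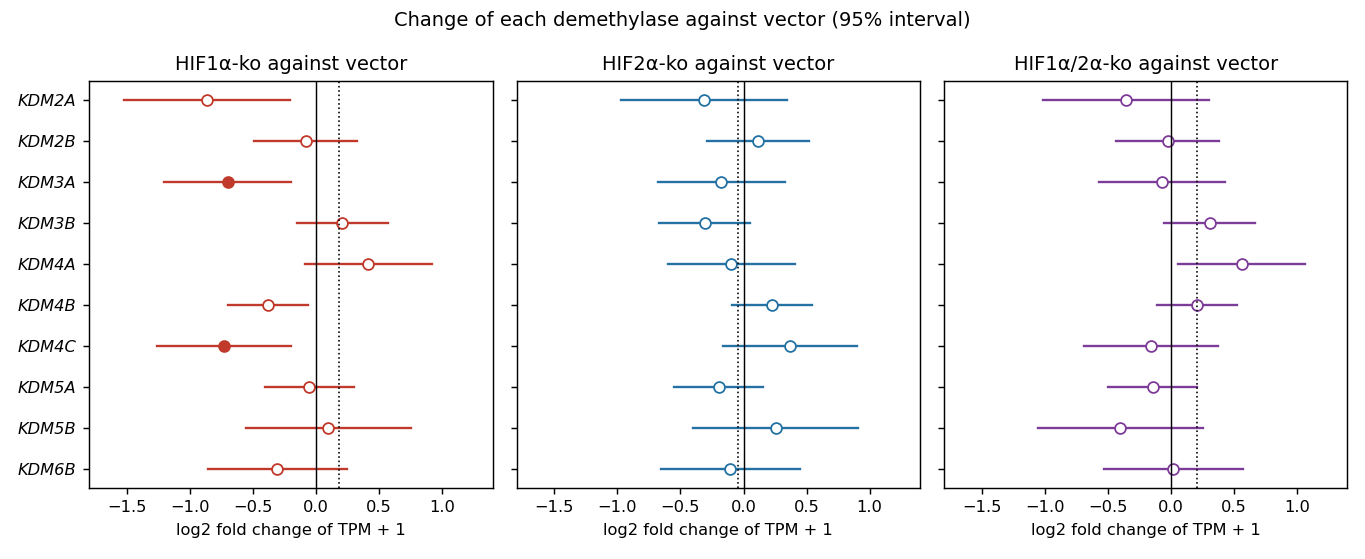
Log2 fold change of TPM + 1 against vector (points, horizontal axis) with the 95% interval (lines) for the 10 demethylases in each knockout group; filled points passed the limma test, the solid line is 0 and the dotted line is the median of all genes tested. Only *KDM3A* and *KDM4C* in HIF1α-ko passed, at -0.70 and -0.73.

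The knockout groups were then compared with each other. Same-numbered knockout libraries deviated together from their group means. Differently numbered libraries were not compared in this way, so pairing by number is not established. As an alternative, each value is also given with the replicate number as a block over the 3 knockout groups where that changed a call. Between HIF1α-ko and HIF2α-ko, 3 of 10 members passed, beside 25.1% of all genes. *KDM4C* was lower in HIF1α-ko by a log2 difference of -1.10 (95% interval -1.64 to -0.57, adjusted p = 0.00734), *KDM4B* was lower by -0.61 (adjusted p = 0.0107), and *KDM3B* was higher by 0.52 (adjusted p = 0.0397). Libraries did not overlap for these 3 genes and for *KDM4A* (0.51, adjusted p = 0.120), beside 49.9% of all genes. The *KDM4C* difference passed in all 21 alternative fits that tested it, which was true of no other call on a member. The *KDM4B* call was lost without HIF1α-ko replicate 3 (adjusted p = 0.0508). The *KDM3B* call was lost under median ratio scaling and quantile normalization and in 7 of the fits that left out 1 library (vector replicate 2, HIF1α-ko replicates 2 and 3, each HIF2α-ko library, and HIF1α/2α-ko replicate 2), with adjusted p up to 0.160. With the block, *KDM3A* was also lower in HIF1α-ko (-0.52, adjusted p = 0.00664), beside 50.5% of all genes called.

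The dual knockout was then set beside HIF1α-ko, and *KDM4B* was higher in it. The groups differed by -1.18 on the log2 scale in *EPAS1* (adjusted p = 0.000153), but *HIF1A*, targeted in both, was also higher in HIF1α/2α-ko (0.64, adjusted p = 0.0287), and its part in the result was not tested. In this comparison 1 of 10 members passed, beside 28.3% of all genes, and *KDM4B* was higher by 0.59 (95% interval 0.28 to 0.91, adjusted p = 0.00988). *KDM3A*, whose libraries did not overlap either, which was true of 44.3% of all genes, had a difference of 0.63 (adjusted p = 0.0593), and *KDM4C* one of 0.58 (adjusted p = 0.0988). With the replicate block 4 members passed, beside 48.5% of all genes: *KDM3A* (adjusted p = 0.00278), *KDM4B* (adjusted p = 0.000944) and *KDM4C* (adjusted p = 0.00270) were higher and *KDM5B* was lower (-0.50, adjusted p = 0.0292). Without the block, *KDM3A* passed when replicate 1 of vector, of HIF2α-ko or of the dual knockout was left out (adjusted p = 0.0324, 0.0415 and 0.0364), and *KDM4C* passed in the last of these fits (adjusted p = 0.0367). The *KDM4B* call was lost under quantile normalization (adjusted p = 0.0532) and kept in the other fits, though its difference is below a log2 change of 1.

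*KDM3B* and *KDM4A* were higher in HIF1α/2α-ko than in HIF2α-ko. The mRNA of *HIF1A* did not pass between these groups (-0.19, adjusted p = 0.453), so the comparison is of groups as labelled and not of measured *HIF1A* levels. Of the 10 members 2 passed, beside 46.4% of all genes, and libraries did not overlap for 3, beside 56.7%. *KDM3B* was higher by 0.62 (95% interval 0.25 to 0.98, adjusted p = 0.00950) and *KDM4A* by 0.66 (95% interval 0.16 to 1.16, adjusted p = 0.0344). With the block 4 passed, beside 62.6% of all genes, and *KDM4C* (-0.53, adjusted p = 0.00258) and *KDM5B* (-0.66, adjusted p = 0.00663) were then lower. The *KDM4A* call was lost when replicate 2 or 3 of either group was left out (adjusted p up to 0.129), with no filter and under both rescalings. *KDM4C* passed without HIF2α-ko replicate 1 (-0.71, adjusted p = 0.0485) and *KDM5B* without vector replicate 3 (adjusted p = 0.0410). Under median ratio scaling 1 member was higher and 3 were lower in this comparison, beside 44.5% of all genes called, and under quantile normalization 0 were higher and 4 lower, beside 45.6%, so the direction of the balance depended on the scaling.

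The interaction asked whether the effect of both knockouts differed from the sum of their single effects. In this limma contrast 0 of 10 members passed, beside 20.6% of all genes, and 1 had an unadjusted p under 0.05. That was *KDM3A*, with 0.81 (95% interval 0.10 to 1.52, adjusted p = 0.0993). Without vector replicate 1, *KDM3A* (1.01, adjusted p = 0.0277) and *KDM4B* (0.50, adjusted p = 0.0458) passed, beside 30.4% of all genes. *KDM3A* also passed with the replicate number as a block in all 4 groups, at an adjusted p of 0.00925, beside 27.6% of all genes. That block includes the vector libraries, which were not taken as paired. Their deviations had a Pearson's r of -0.0265 to 0.163 with those of same-numbered knockout libraries.

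Ratios between paralogs within a library do not change when all its values are multiplied by 1 factor. Quantile normalization can change them, and they were not recomputed under it. The ratios were compared between the 6 libraries in which *HIF1A* was targeted and the 6 in which it was not. The ratio of *KDM4A* to *KDM4C* was 2.81, 1.52 and 1.37 in vector and 1.92, 0.973 and 1.04 in HIF2α-ko. It was 7.71, 3.48 and 4.03 in HIF1α-ko and 3.09, 3.01 and 3.36 in HIF1α/2α-ko. All 6 libraries with *HIF1A* targeted lay above all 6 without, and the difference in mean log2 ratio was 1.37 (exact two-sided permutation test, p = 0.00217, which is the smallest p that 6 against 6 allows, adjusted p = 0.0217 over 10 tests). Each side pools libraries of different groups, and the test shuffled libraries freely across groups. The p-values of the ratios thus measure the spread between libraries and not between separately made knockouts. Ratios of other gene pairs were not compared, so how often such a separation arises among all genes is unknown. Of single genes, limma called 26.1% in HIF1α-ko against vector and 46.4% in HIF1α/2α-ko against HIF2α-ko.

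The ratio of *KDM3A* to *KDM3B* was 3.05, 4.38 and 4.38 in vector and 3.48, 4.45 and 5.36 in HIF2α-ko. It was 1.98, 1.78 and 2.25 in HIF1α-ko and 2.87, 3.36 and 2.57 in HIF1α/2α-ko. The libraries with *HIF1A* targeted were lower by a log2 difference of -0.77 (exact permutation test, p = 0.00433, adjusted p = 0.0217), with 1 library of HIF1α/2α-ko above the lowest vector library. Both ratio calls held when each library was left out in turn. The ratio of *KDM4A* to *KDM4B* differed by 0.80 (exact permutation test, p = 0.0260, adjusted p = 0.0866) and passed only without vector replicate 1 (0.99, adjusted p = 0.0289). The other *HIF1A* tests, of *KDM2A* to *KDM2B* and *KDM5A* to *KDM5B*, and all 5 tests by *EPAS1* had adjusted p of 0.357 or more.

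Other enzymes that use oxygen and 2-oxoglutarate were counted by fixed lists, with the counts read beside the shares of all genes. By direction, 17.3% of all genes tested were higher and 8.77% lower in HIF1α-ko. The shares were 5.07% and 5.89% in HIF2α-ko and 31.8% and 14.8% with both knockouts. Of 18 other JmjC-domain genes 16 were tested, and HIF1α-ko had 2 higher and 1 lower, HIF2α-ko 1 higher and 0 lower, and the dual knockout 7 higher and 1 lower. *PHF2*, an H3K9 demethylase, rose in HIF1α-ko (1.43, adjusted p = 0.00121) and with both knockouts (1.88), and *HSPBAP1* rose in HIF1α/2α-ko (1.71). Of 12 DNA and RNA demethylases 10 were tested, and HIF1α-ko had 2 higher and 2 lower, HIF2α-ko 1 and 1, and the dual knockout 1 and 2. *TET2*, which oxidises methylated cytosine, fell by 0.99 in HIF1α-ko and by 1.20 with both knockouts, and *ALKBH7*, a mitochondrial member of the ALKB family, rose in all 3 knockouts (1.00, 0.71 and 1.17). Of the 3 HIF prolyl hydroxylases, *EGLN1* fell by 1.59 in HIF1α-ko and was also lower with both knockouts (adjusted p = 0.00120), and *EGLN3* fell by 1.98 in HIF1α/2α-ko, where 2 of the 3 were lower and 1 higher.

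The hypoxia response list, 10 well-known hypoxia-induced genes, had 6 lower in HIF1α-ko, 2 higher in HIF2α-ko and 7 lower with both knockouts. *BNIP3*, a mitophagy receptor, fell by 3.76 in HIF1α-ko and by 2.83 with both knockouts. *PFKFB4*, a regulator of glycolysis, fell by 2.56 and by 1.15 and rose by 0.81 in HIF2α-ko. Of 16 genes that make or use 2-oxoglutarate or the competing metabolites succinate and fumarate, 15 were tested, and HIF1α-ko had 3 higher and 1 lower, 0 changed in HIF2α-ko under limma (1 at an unadjusted p under 0.05) and 9 were higher in HIF1α/2α-ko. *SDHA*, a succinate dehydrogenase subunit, rose by 0.60 in HIF1α-ko and by 1.14 with both knockouts, and *GLUD1*, which makes 2-oxoglutarate from glutamate, rose by 0.69 and by 1.27.

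Demethylases that use flavin in place of iron, and the methyltransferases that write the same marks, were counted likewise. *KDM1A*, which encodes LSD1, rose in HIF1α-ko (0.44, adjusted p = 0.0437) and with both knockouts (0.80), and *KDM1B* rose in HIF1α/2α-ko (0.82). Of 11 genes of the H3K4 methyltransferases, 3 were higher in HIF1α-ko and 6 with both knockouts, beside 17.3% and 31.8% of all genes. None was lower in any knockout. *SETD1B* rose by 0.89 in HIF1α-ko and by 1.44 with both knockouts, and *WDR5* rose by 1.34 in HIF1α/2α-ko. In HIF2α-ko 0 of these 11 passed under limma and 1 had an unadjusted p under 0.05. Of 4 H3K9 methyltransferases tested, *EHMT1* was higher in HIF1α-ko (0.68) and with both knockouts (1.32), *SETDB1* was lower in HIF1α/2α-ko (-0.49), and 0 passed in HIF2α-ko under limma, with 0 at an unadjusted p under 0.05.

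Of 9 genes of the H3K27 methyltransferase complex, the catalytic subunit *EZH2* was the 1 gene lower in HIF1α-ko (-0.86) and the 1 lower in HIF2α-ko (-0.67), and 2 were higher in HIF1α/2α-ko, among them *RBBP7* (0.56). Of 6 H3K36 methyltransferases, HIF1α-ko had 2 higher and 1 lower, HIF2α-ko 2 lower and the dual knockout 2 higher, with *NSD1* at 0.62 and 0.92 and *SETMAR* at 0.83 and 0.68 in the groups with *HIF1A* targeted. Of 9 genes of the Polycomb complex that holds KDM2B, 2 were lower in HIF1α-ko, 0 passed in HIF2α-ko under limma (3 at an unadjusted p under 0.05), and the dual knockout had 2 higher and 1 lower. Its subunit gene *RYBP* fell by 1.51 and by 1.55 in these groups, and *YAF2*, the paralog of *RYBP*, rose by 1.01 in HIF1α/2α-ko. Of the 49 changes of genes named from these lists, the targeted genes and the markers that passed against vector, 39 passed in every alternative fit and 0 changed sign. Genes were named from the lists for the smallest p against vector, so this count cannot be set beside that of the members. The calls that were lost in some fit are not listed here by gene.

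The genes whose log2(TPM + 1) was most like that of a member over the 12 libraries were found by Pearson's r, as a description, since the libraries share groups and scaling. For *KDM3A* they were *AGTPBP1* (0.943), *PIAS2* (0.938) and *THOC7* (0.936). For *KDM4C* they were *BMT2* (0.969), *CCDC47* (0.959) and *MAP2K1* (0.957), and for *KDM4B* they were *GPT2* (0.960), *PDXP* (0.956) and *SLC25A11* (0.954). *KDM3B* was most like *LMTK2* (0.983), *GARRE1* (0.981) and *VKORC1L1* (0.976), and *KDM4A* most like *NSMCE4A* (0.969), *ZNF689* (0.959) and *SLC25A28* (0.954). For the other 5 members the highest r was between 0.846 and 0.930. Among the members themselves *KDM3A* and *KDM4C* had an r of 0.772, *KDM2A* and *KDM6B* 0.758, and *KDM3B* and *KDM4A* 0.684, whereas *KDM4A* and *KDM4C*, of 1 family, had -0.398.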

How the data were processed

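Messenger RNA of U87 cells was sequenced in 12 libraries, 3 for vector and for each of the 3 knockouts, and groups were taken from the labels. The authors deposited TPM values per gene, 1 column per library, which summed to 999955 to 999982. The submitters' processing notes name FastQC 0.11.2, Trimmomatic 0.36, HISAT2 2.0, bedtools 2.26.0 and GRCh38, with no roles; the counter and annotation are not given in the sources used here. The vector columns were assigned as those without a knockout code. All columns were used.

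Genes that reached 1 TPM in 3 libraries or more (11731) were fitted on log2(TPM + 1) with limma 3.58.1 (R 4.3.3), with all 4 groups in 1 model, a mean-variance trend, and Benjamini-Hochberg adjustment within each of 7 contrasts at 0.05. Adjusted p-values of genes come from this test, and the script was tested on simulated data. Paralog ratios were compared by exact permutation tests (scipy 1.17.1). The 10 members and all lists were chosen with earlier results of these data known. Named genes were the members, *HIF1A* and *EPAS1*, the 2 genes of each list with the smallest p against vector, and the 3 genes most like each member.

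Same-numbered libraries of the 3 knockout groups deviated together from their group means (Pearson's r across genes 0.196 to 0.508), and were analysed as paired as well, although no source says what a number marks. Differently numbered libraries were not compared in this way, so these values do not establish pairing. Vector libraries had an r of -0.0265 to 0.163 with the knockouts and were not paired. Alternatives were a pseudocount of 0.1, no filter, a mean TPM of at least 5, median ratio scaling, quantile normalization, the groups compared only, no trend, the replicate block, a log2 change of at least 1 (for counts of members) and each library left out. A fit without replicate 1 of every group was added after seeing the data. Promoter windows and positions are from RefSeq GRCh38.p14, with windows found for 10 of 10 members.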

Additional observations from a re-analysis of the deposited data

How the results depend on the processing

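Of 70 changes of members tested over 7 comparisons 8 were called, none of the 8 changed sign in any alternative, and 1 kept its call in every one. The number of libraries per group, 3, and the unknown depth limit the precision of every value. The cause of each change below was not tested. The percent in parentheses is the share of all genes called in the same fit or fits.

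In HIF1α-ko against vector 2 members were called, but 0 with no filter (16.9%), with the groups compared only (18.3%) or with a log2 change of at least 1 (6.94%), 1 at a mean TPM of at least 5 (29.6%), where *KDM4C* was not tested, 4 under median ratio scaling (23.9%) and under quantile normalization (26.3%), 6 without replicate 1 of every group (55.1%), and 0 to 6 with 1 library left out (13.2% to 35.8%). In HIF2α-ko against vector the count of 0 became 1 without replicate 1 of every group (36.5%). In HIF1α/2α-ko against vector it became 1 under median ratio scaling (46.5%), 2 under quantile normalization (48.5%), 2 without replicate 1 of every group (64.4%) and 0 to 2 with 1 library left out (36.7% to 50.6%). In HIF1α/2α-ko against HIF1α-ko the count of 1 became 2 under median ratio scaling (29.2%) and with the groups compared only (27.2%), 0 under quantile normalization (30.9%) and at a log2 change of 1 (8.52%), 3 with the replicate block in all groups (34.8%), 4 with the replicate block in the knockout groups (48.5%), 4 without replicate 1 of every group (45.0%), and 1 to 3 with 1 library left out (19.4% to 34.8%). In HIF1α/2α-ko against HIF2α-ko the count of 2 became 1 with no filter (33.1%), 4 under median ratio scaling (44.5%), quantile normalization (45.6%) and the block in the knockout groups (62.6%), 0 at a log2 change of 1 (18.4%), and 1 to 3 with 1 library left out (35.9% to 51.3%). In HIF1α-ko against HIF2α-ko the count of 3 became 5 without replicate 1 of every group (47.1%), 1 at a log2 change of 1 (6.51%), and 1 to 3 with 1 library left out (12.3% to 32.0%). The interaction count of 0 became 1 with the replicate block (27.6%), 4 without replicate 1 of every group (43.0%), and 0 to 2 with 1 library left out (13.2% to 30.4%). The replicate block changed no other count of members by over 1.5 times.

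Sign changes occurred in 26 of the 62 uncalled changes. Under median ratio scaling and quantile normalization the log2 difference became -0.092 and -0.038 for *KDM5B* in HIF1α-ko, and in the dual knockout -0.0079 and -0.076 for *KDM4B* and -0.20 and -0.23 for *KDM6B*, all against vector. In HIF1α/2α-ko against HIF2α-ko it became -0.16 and -0.21 for *KDM3A*, -0.19 and -0.31 (adjusted p = 0.0499) for *KDM5A*, and -0.14 and -0.19 for *KDM6B*, and in HIF1α-ko against HIF2α-ko -0.073 and -0.09 for *KDM5A*. Under quantile normalization alone it became -0.005 for *KDM3B* in HIF1α/2α-ko against vector, -0.10 for *KDM2B* and -0.035 for *KDM3B* in HIF1α/2α-ko against HIF1α-ko, and -0.071 for *KDM5A* in the interaction. Without replicate 1 of every group it became 0.075 for *KDM5A* in HIF1α-ko, 0.053 for *KDM4A* in HIF2α-ko, and 0.23 for *KDM2B* and -0.14 for *KDM6B* in HIF1α/2α-ko, all against vector, 0.047 for *KDM2A* and 0.045 for *KDM2B* in HIF1α/2α-ko against HIF2α-ko, and 0.052 for *KDM2B* and -0.017 for *KDM5A* in the interaction.

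With 1 library left out, the differences from vector that changed sign ranged from -0.18 to 0.060 for *KDM5A* and -0.17 to 0.44 for *KDM5B* in HIF1α-ko; in HIF2α-ko from -0.38 to 0.029 for *KDM3A*, -0.23 to 0.14 for *KDM4A*, -0.012 to 0.60 for *KDM5B* and -0.42 to 0.12 for *KDM6B*; and in HIF1α/2α-ko from -0.15 to 0.22 for *KDM2B*, -0.28 to 0.074 for *KDM3A*, -0.28 to 0.038 for *KDM4C* and -0.30 to 0.24 for *KDM6B*. In HIF1α/2α-ko against HIF1α-ko they ranged from -0.072 to 0.30 for *KDM2B*, -0.0083 to 0.22 for *KDM3B* and -0.21 to 0.039 for *KDM5A*. In HIF1α/2α-ko against HIF2α-ko they ranged from -0.26 to 0.17 for *KDM2A*, -0.27 to 0.10 for *KDM2B*, -0.10 to 0.25 for *KDM3A*, -0.074 to 0.025 for *KDM4B* and -0.011 to 0.12 for *KDM5A*, and in HIF1α-ko against HIF2α-ko from -0.37 to 0.012 for *KDM5B*. In the interaction they ranged from -0.19 to 0.19 for *KDM2B*, -0.032 to 0.40 for *KDM4C* and -0.008 to 0.24 for *KDM5A*.

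Of the ratios, *KDM4A* to *KDM4B* by *HIF1A* ranged from 0.72 to 0.99 with 1 library left out, and passed at the highest. By *EPAS1*, *KDM2A* to *KDM2B* ranged from -0.15 to 0.18 and *KDM5A* to *KDM5B* from -0.17 to 0.076. The latter was -0.50 in the libraries without the other knockout and 0.43 in those with it.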
